A study of Caenorhabditis elegans with 2 samples.

Results

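The snoRNA genes described here lie wholly inside a protein-coding gene, its host, and are read from the same strand. They were defined by annotation, as genes of biotype snoRNA in Ensembl's annotation of WBcel235, the assembly also called ce11, and numbered 183 of 346 nuclear snoRNA genes (52.9%). The choice of this set was made with earlier results of these data known. They formed 186 snoRNA and host pairs with 159 hosts, because 3 of them lie in more than 1 host and some hosts hold several. The question asked of each pair was whether a binding site of the nuclear receptor NHR-85 lay at the snoRNA start, at a start of the host, at both or at neither. A start was taken to hold a site where the summit of a peak lay from 1000 bp upstream to 200 bp downstream of it.

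The data were 4 deposited peak lists from chromatin immunoprecipitation followed by sequencing (ChIP-seq) of whole Caenorhabditis elegans larvae. All animals were hermaphrodites of strain OP539, written unc-119(tm4063) III; wgIs539, which express NHR-85 with a GFP-FLAG tag at its C-terminus from a transgene, and an antibody to GFP recovered the bound DNA. They were in the L1 stage, 6 h after a synchronization by bleaching and starvation, and the labels do not say whether they were fed in that time. There was 1 group with 2 biological replicates, which all carried the unc-119 allele and the tag, and 4 lists were used: 1 for each replicate, 1 from the pooled reads, and 1 kept by the irreproducible discovery rate (IDR), called the IDR list. The labels give neither the promoter nor the copy number of the transgene. Whole animals mix all cell types, so neither the cells in which a site was bound nor their number can be read from these lists. Without an untagged strain or another GFP fusion, sites particular to NHR-85 and sites common to GFP precipitations cannot be told apart, which bears on every count given here. The lists hold no read counts, so depth is unknown, and the 95% Wilson intervals beside shares cover counting error only. With 1 group no test between conditions was possible, and snoRNA genes of 1 host often share a peak.

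Small nucleolar RNAs guide the chemical modification of ribosomal RNA. Those of the C/D box kind pair with the enzyme fibrillarin, which methylates the sugar of a chosen base, and those of the H/ACA kind pair with the enzyme dyskerin, which turns a uridine into pseudouridine. Many are cut out of an intron of a host gene after splicing and so depend on the host's promoter, while others are transcribed from a promoter of their own, even inside another gene. NHR-85 is the nematode relative of the mammalian clock repressor Rev-Erb.

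Each member can thus be asked whether NHR-85-GFP sat at the host's promoter or at the snoRNA itself. The stretches just before the snoRNA start are shown first for 8 members with a summit within 100 bp of their start, because they share letters at nearly the same place. Each line is the 100 bases before the start, 5′ to 3′ on the gene's strand, read from the RefSeq copy of WBcel235. Capitals mark the blocks AACNCG and TGTCNG with 5 bases between them.

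C08D8.3: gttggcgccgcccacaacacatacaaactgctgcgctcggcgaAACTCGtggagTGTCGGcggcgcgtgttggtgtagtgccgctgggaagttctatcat
smy-2: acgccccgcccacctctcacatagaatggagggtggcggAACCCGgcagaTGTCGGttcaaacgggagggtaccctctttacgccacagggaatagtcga
F01D5.12: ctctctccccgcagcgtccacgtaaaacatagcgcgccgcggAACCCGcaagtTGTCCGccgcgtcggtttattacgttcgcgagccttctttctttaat
ZK994.7: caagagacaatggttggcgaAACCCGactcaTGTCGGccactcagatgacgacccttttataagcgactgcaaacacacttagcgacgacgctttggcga
W04D2.7: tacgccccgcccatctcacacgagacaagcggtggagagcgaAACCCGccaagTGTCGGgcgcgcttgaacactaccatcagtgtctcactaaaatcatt
T06D8.11: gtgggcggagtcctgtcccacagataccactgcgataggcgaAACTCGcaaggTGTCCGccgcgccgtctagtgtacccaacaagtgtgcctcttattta
C16D9.11: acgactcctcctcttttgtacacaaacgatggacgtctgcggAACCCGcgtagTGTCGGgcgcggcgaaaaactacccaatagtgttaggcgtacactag
T19C4.11: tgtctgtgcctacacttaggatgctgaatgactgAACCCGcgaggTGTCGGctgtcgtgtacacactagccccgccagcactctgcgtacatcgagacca

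Among the other members with a summit within 100 bp of their start, C51F7.3, M106.6, F38E11.14 and C51F7.4 lacked the blocks. For the first 2 of these the capitals in the next lines mark GTTCGA, any 2 bases and then C, the letters of the B box, which is the inner promoter element of transfer RNA genes. F38E11.14 is shown because it held neither kind of letters.

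C51F7.3: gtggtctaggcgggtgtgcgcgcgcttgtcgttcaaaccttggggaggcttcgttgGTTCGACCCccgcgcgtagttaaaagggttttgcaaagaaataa
M106.6: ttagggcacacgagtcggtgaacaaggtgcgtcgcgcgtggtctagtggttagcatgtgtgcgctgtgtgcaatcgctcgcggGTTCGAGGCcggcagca
F38E11.14: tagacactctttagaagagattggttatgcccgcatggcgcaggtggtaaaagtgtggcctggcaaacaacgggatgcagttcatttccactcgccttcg

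The snoRNA genes themselves also differed in kind. The whole genes C51F7.3, with a summit within 100 bp of its start, and F54E7.10, whose site was at its host rps-12, are shown as examples. Of the 13 members with a summit within 100 bp, C51F7.3 alone held C box letters without a mismatch. The summit of C51F7.3 was shared with C51F7.4. Capitals in C51F7.3 mark the C box and D box letters near its ends, and capitals in F54E7.10 mark ACA just before its last 3 bases, where H/ACA snoRNAs carry it.

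C51F7.3: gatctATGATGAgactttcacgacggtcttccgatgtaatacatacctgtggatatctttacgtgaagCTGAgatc
F54E7.10: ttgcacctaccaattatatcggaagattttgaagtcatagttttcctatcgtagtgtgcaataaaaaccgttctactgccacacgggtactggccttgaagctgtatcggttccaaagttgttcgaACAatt

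Sites were found both at snoRNA starts and at host starts. In the IDR list, 35 of 183 snoRNA genes (19.1%, 95% Wilson interval 14.1 to 25.4) had a summit at their own start, and 45 of 159 hosts (28.3%, 21.9 to 35.8) had one at a host start. The intervals overlap, and a host is counted at any of its annotated starts while a snoRNA gene has 1, so a difference was not shown. With the most upstream start alone, 37 hosts had a summit. Over all 346 snoRNA genes the share was 22.5%, and over all 19973 protein-coding genes it was 8.09%, so that the snoRNA genes inside hosts were slightly below the snoRNA background, of which they are part, and the hosts were above the coding background. Non-coding genes of other kinds that lie inside a coding gene on its strand had a summit in 2.41% of 4275 cases. The 35 snoRNA starts shared 30 distinct peaks. Because windows of a snoRNA near its host's start overlap those of the host, these shares count many sites for both genes. In the IDR list 25 pairs with overlapping windows had a summit in both windows. Only 9 separate pairs and 1 overlapping pair had a summit at the snoRNA start alone.

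The more relaxed lists gave higher shares at both. In the pooled list 67 snoRNA genes (36.6%) and 80 hosts (50.3%) had a summit, against 42.2% of all snoRNA genes, 19.4% of coding genes and 9.05% of other nested non-coding genes. In replicate 1 the counts were 63 snoRNA genes (34.4%) and 78 hosts (49.1%), against backgrounds of 39.9%, 18% and 9.17% in the same order. In replicate 2, whose list is longer, they were 82 snoRNA genes (44.8%) and 97 hosts (61%), against 49.7%, 25.7% and 14.7%. In each of the 4 lists the hosts were above all coding genes. Both were counted at any annotated start, and the number of starts per gene was not matched. No coding background was made for the most upstream start alone. The snoRNA genes inside hosts were somewhat below all snoRNA genes, but a difference was not shown. The share of all snoRNA genes lay inside their interval in the IDR list (14.1 to 25.4), the pooled list (30 to 43.8), replicate 1 (27.9 to 41.6) and replicate 2 (37.8 to 52). The 4 lists come from the same 2 replicates and are not independent.

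Whether the snoRNA or the host start held a summit can be told apart in 101 pairs, whose windows share no base. They are made of 100 snoRNA genes and 93 hosts. In the IDR list, 9 of these pairs (8.91%, 4.76 to 16.1) had a summit at the snoRNA start alone, 24 (23.8%, 16.5 to 32.9) at the host start alone, 0 at both (up to 3.66% by the Wilson interval) and 68 at neither. With the most upstream host start alone, 12 pairs had the snoRNA start alone and 23 the host start alone. The 24 pairs with the host start alone belonged to 20 hosts. Separate windows do not settle whether a site belongs to a gene outside the pair, which was not tested. The summit counted for alg-5, for example, lay 815 bp upstream of it but 145 bp upstream of his-68. That of C51F7.3 lay 94 bp upstream of it but 15 bp from the start of another snoRNA gene, C51F7.4. The replicates gave the same order: replicate 1 had 11 pairs with the snoRNA start alone, 37 with the host start alone and 9 with both, and replicate 2 had 17, 41 and 16. In the pooled list the counts were 15, 38 and 10. Pairs with both starts marked thus appeared once weaker peaks were counted. Of the 85 pairs with overlapping windows, 1 had a summit at the snoRNA start alone, 13 at the host start alone, 25 in both windows and 46 in neither.

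**Figure D1:**
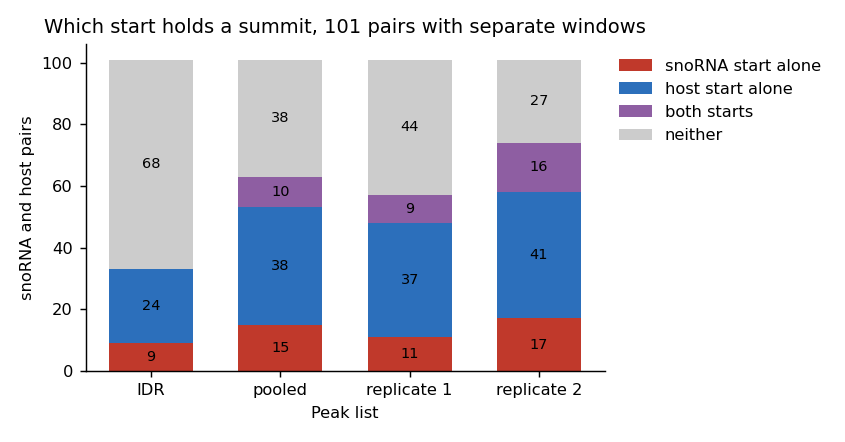
Number of snoRNA and host pairs with separate windows (vertical axis, 101 pairs in each bar) whose summit lay at the snoRNA start alone, at a host start alone, at both or at neither, in each peak list. The host start alone was the larger class in every list, with 24 pairs against 9 for the snoRNA start in the IDR list.

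Where a snoRNA lay far from its host's start, the summits gathered at the snoRNA start itself. Around the starts of the 98 snoRNA genes whose pairs were all separate, the IDR list had 10 summits within 1000 bp, and 9 of them lay from 100 bp before to 99 bp after the start. The corresponding numbers were 19 of 36 in the pooled list, 16 of 29 in replicate 1 and 20 of 56 in replicate 2. All 9 separate snoRNA genes with an IDR summit in their window had it within 100 bp (100%, 70.1 to 100). Counting overlapping pairs too, 13 of 183 members (7.1%) had an IDR summit within 100 bp of their start. The share was 18.4% (30 of 163) among snoRNA genes outside such hosts and 0.772% (33 of 4275) among other nested non-coding genes. The 100 bp distance was chosen after the summits were seen.

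**Figure D2:**
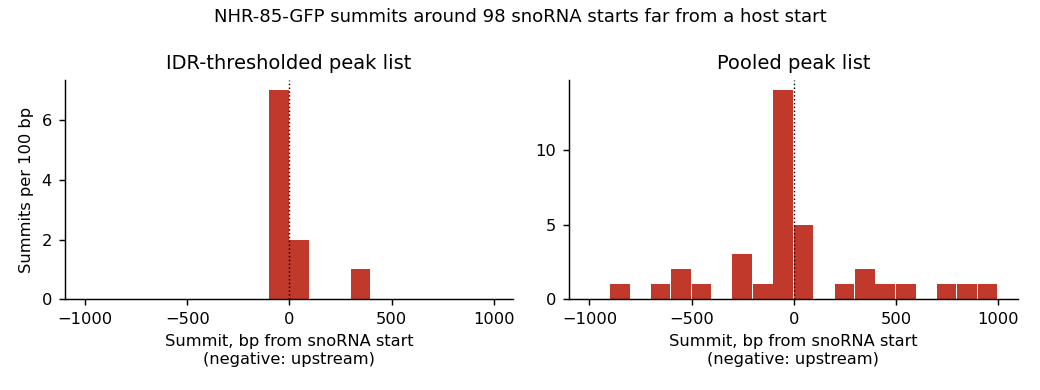
Summits per 100 bp (vertical axis) by distance from the snoRNA start (horizontal axis, bp, negative upstream), around 98 snoRNA genes whose windows share no base with their host's, for the IDR list (left) and the pooled list (right). In the IDR list 9 of 10 summits lie within 100 bp of the start.

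The 13 members with a summit within 100 bp shared 12 peaks, all found in both replicates. In the deposited units of the peak caller, their signals in the IDR list ran between 115.8 and 294.9 with a median of 194, and the median of all IDR peaks was 161.8. Replicate 1 gave these peaks signals of 58.06 to 155 (median 98.9) and replicate 2 gave 52.56 to 149.8 (median 101.6). The ratio of replicate 1 to replicate 2 had a median of 1.08 and a range of 0.778 to 1.29. Their summits lay at a median of 29 bp upstream of the snoRNA start, and 9 of the 12 were upstream.

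C08D8.3 (V, 8349108 to 8349187, plus strand) lies in a 303 bp intron of C08D8.1, a gene for a predicted transporter-like protein of the UNC93 family, 3349 bp from the host's first start. Its summit was 5 bp upstream of the snoRNA start, with signals of 144.9 in replicate 1 and 149.8 in replicate 2 and 294.9 in the IDR list. The host had no IDR summit at its own start, which makes the snoRNA the only one of the pair with a site.

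F01D5.12 (II, 14018354 to 14018441, minus strand) lies in a 642 bp intron of F01D5.10, which encodes a carbohydrate sulfotransferase. Its summit was 19 bp upstream, with signals of 146.4 in replicate 1 and 148.1 in replicate 2, nearly the same level. ZK994.7 (V, 8500579 to 8500645, plus strand), in a 341 bp intron of the peroxidasin gene pxn-1, had a summit 35 bp upstream and signals of 145 in replicate 1 and 120.5 in replicate 2. Neither host had an IDR summit of its own.

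smy-2 (IV, 9511395 to 9511466, minus strand) is annotated as a snoRNA gene in C33A12.3 and is counted as one here by that annotation alone. The neighbouring smy-1 is annotated as an snRNA gene, and whether smy-2 belongs to that kind was not tested. The summit of smy-2 was 23 bp upstream of it, with signals of 155 in replicate 1 and 136.2 in replicate 2. This summit also lay 279 bp upstream of a later start of the host. The pair therefore counts as having both starts marked, although the summit was much nearer to smy-2. A separate IDR peak with a signal of 105.9 lay 408 bp upstream of another C33A12.3 start.

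The remaining members with a summit within 100 bp of their start are named after their values were seen, because they complete this small set. W04D2.7 (V, 12491280 to 12491346, plus strand) in the innexin gene inx-11 had signals of 88.97 in replicate 1 and 107.6 in replicate 2, with its summit 57 bp upstream. T06D8.11 (II, 11224182 to 11224258, plus strand) in plpr-1, which encodes a protein with a lipid phosphatase domain, had signals of 106 and 82.07 in replicates 1 and 2, with the summit 50 bp inside from the start. C16D9.11 (V, 8228900 to 8228969, minus strand) in rol-3, a receptor tyrosine kinase gene, had signals of 97.5 and 84.65 with the summit 40 bp upstream. In all 3 pairs the host start was without an IDR summit. In the pooled list and in both replicates, however, the rol-3 start held a summit too.

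M106.6 (II, 10840317 to 10840391, plus strand) lies 16071 bp into mix-1, a condensin subunit gene, and had the weakest of the 12 peaks, with signals of 58.06 in replicate 1 and 52.56 in replicate 2. The mix-1 start had no IDR summit but held one in the pooled list and in both replicates. F38E11.14 (IV, 9477629 to 9477699, minus strand) in cng-3, a cyclic nucleotide-gated channel gene, had 75.93 in replicate 1 and 72.13 in replicate 2. Its summit was placed 63 bp inside from the start in the IDR list, 80 bp inside in replicate 1 and 6 bp upstream in replicate 2, so its side of the start was not settled by these lists.

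C51F7.4 and C51F7.3 (V, 12303599 to 12303693 and 12303708 to 12303783, plus strand) follow each other in frm-7, a gene for a FERM domain protein, and shared 1 peak. C51F7.4 overlaps an exon of frm-7. Its signals were 78.54 in replicate 1 and 95.65 in replicate 2, and its summit lay 15 bp past the start of C51F7.4 and 94 bp before that of C51F7.3. The B box letters that stand before C51F7.3 lie inside the annotated C51F7.4, from position 66 of its 95 bases. The summit cannot be given to 1 of these genes. The frm-7 start had no summit in the IDR list, the pooled list or replicate 2, but held one in replicate 1.

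T19C4.11 (V, 11175529 to 11175706, minus strand) in gpa-1, a G protein alpha subunit gene, had different summits at the snoRNA start and at a host start, as did smy-2 and C04A2.16. The summit 37 bp upstream of the snoRNA had signals of 66.44 in replicate 1 and 53.37 in replicate 2, and the summit 200 bp upstream of a gpa-1 start had 50.13 in replicate 1 and 62.73 in replicate 2. In the IDR list the snoRNA site had 123.3 and the host site 107.3, both near the lowest signal of that list, 97.17.

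Y37E3.20 (I, 2085037 to 2085155, plus strand) in pcyt-2.1, which encodes an enzyme of phospholipid synthesis, had signals of 100.3 in replicate 1 and 128.9 in replicate 2, with its summit 47 bp upstream. Another start, that of the non-coding Y37E3.29, was nearer to this summit, at 37 bp. A weaker peak with an IDR signal of 103.1 lay 165 bp inside from the snoRNA start, and a host start lay 172 bp further on. Starts of other non-coding genes also lay from 75 to 123 bp from the summits of T06D8.11 (T06D8.17), F01D5.12 (F01D5.14), F38E11.14 (F38E11.21) and W04D2.7 (W04D2.14), and their part in these peaks was not tested.

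**Figure D3:**
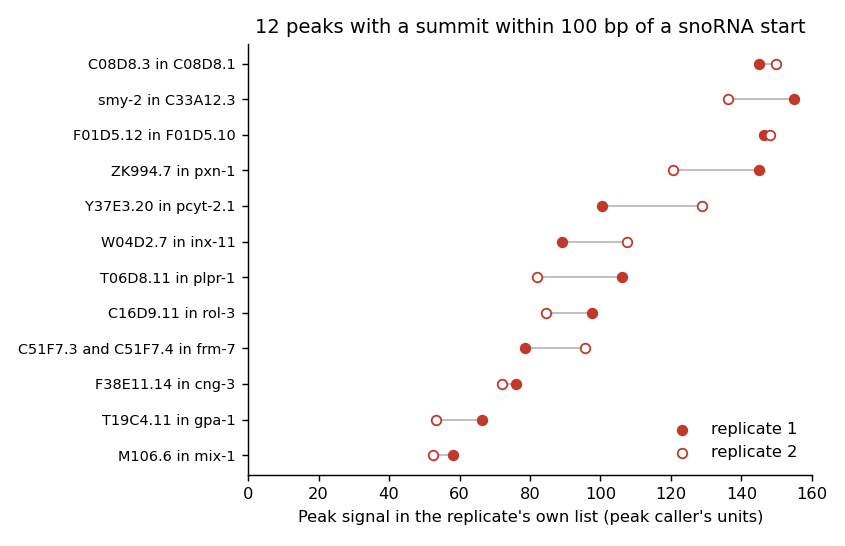
Peak signal in the list of each replicate (horizontal axis, the peak caller's units) for the 12 peaks whose summit lies within 100 bp of a snoRNA start, filled points for replicate 1 and open points for replicate 2. Replicate 1 runs between 58.06 at M106.6 and 155 at smy-2, replicate 2 between 52.56 at M106.6 and 149.8 at C08D8.3, and the ratio of replicate 1 to replicate 2 stays between 0.778 and 1.29.

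The block letters shown above were frequent before members with a nearby summit and rare before other members. The pattern was written after these sequences were seen, so its share in them is a description. Within 150 bp before the start, the blocks stood before 9 of 13 members with a summit within 100 bp (69.2%, 42.4 to 87.3) and 3 of the 170 other members (1.76%). They began between 80 and 57 bp before the start, and 7 of the 9 began from 61 to 56 bp before it. The blocks also stood before 21 of 163 snoRNA genes outside such hosts (12.9%) and 21 of 129 snRNA genes (16.3%), genes for the RNAs of the spliceosome, whose promoters are known to carry an upstream element at a fixed place. They stood before 8 of 19973 protein-coding genes (0.0401%) and 23 of 4275 other nested non-coding genes (0.538%). Over all members the share was 12 of 183 (6.56%), and the other gene sets were not split by summit. The 3 members with the blocks and no IDR summit, C02C6.13, F54F11.6 and Y73B6A.14, had no summit in any of the 4 lists and are named after this was seen.

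Most places with the blocks had no peak. The genome holds 1347 matches on both strands, and 38 (2.82%) lay under an IDR peak. Before a member, 9 of 12 matches (75%) lay under one, before another snoRNA gene 12 of 21 (57.1%), before an snRNA gene 8 of 20, and 3 of 1246 (0.241%) where no start lay within 150 bp. Before another non-coding gene 5 of 35 matches (14.3%) lay under an IDR peak, and before a protein-coding gene 1 of 13 (7.69%). Under pooled peaks the share of matches with no start nearby was 2.17% (27 of 1246). IDR peaks cover 0.943% of the genome and pooled peaks 3.38%, so matches away from annotated starts were under peaks no more often than the covered share.

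The B box letters stood before 9 of 183 members (4.92%), against 9 of 163 other snoRNA genes (5.52%), 64 of 19973 protein-coding genes (0.32%), 1 of 129 snRNA genes (0.775%) and 24 of 4275 other nested non-coding genes (0.561%). The members with them and an IDR summit at their start were C51F7.3 and M106.6. Of the 7 others, 6 had a weaker summit in the pooled list, namely T24H7.6, F11A10.9, F55A11.10, Y43F8C.22, ZK546.18 and F16A11.12, and T23G5.7 had none at its start in any list. In that list 36.6% of all 183 members and 42.2% of all snoRNA genes had a summit at their start. ZK546.18 had none at its start in replicate 1, and F16A11.12 had none in replicate 2. These members are named because they hold the letters, after their values were seen. RefSeq annotates a transfer RNA pseudogene on the same strand in the 150 bases before 3 members, D1046.6, F19H8.6 and T08B2.13, and all 3 had a summit in the pooled list. For D1046.6 and T08B2.13 that summit lay 81 and 29 bp upstream of the snoRNA start.

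Letters of known binding sites were also searched around the 12 summits. Within 50 bp of the summit, on either strand, AGGTCA, the half-site of many nuclear receptors, was found in 0 of the 12 (up to 24.2%), in 2 of 49 other peaks at host starts (4.08%) and in 6.53% of all IDR peaks. GAGAGA was found in 0 of 12, 7 of 49 (14.3%) and 25.5%, the E-box CACGTG in 0 of 12, 3 of 49 (6.12%) and 8.44%, and TATAAA in 1 of 12 (8.33%), 1 of 49 (2.04%) and 5.57%, in the same order. For the half-site, the E-box and TATAAA the share of all IDR peaks lay inside the interval of the 12, so a difference was not detectable. For GAGAGA the share of all IDR peaks lay just above the upper bound of 24.2%, and within 100 bp of the summit it was found in 3 of 12 (25%, 8.89 to 53.2), against 40.7% of all IDR peaks. Absence of these letters says nothing of the receptor's binding.

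Most other peaks of these pairs lay before host starts. There were 49 in host windows, all in both replicates and all upstream of the nearest host start, at a median of 279 bp and from 962 to 37 bp. Their IDR signals ran between 97.7 and 889.9 with a median of 181.1, so the strongest peaks of the set were at hosts, not at snoRNA starts. The ratio of replicate 1 to replicate 2 had a median of 1.03 and a range of 0.432 to 1.74. For 18 of the 49 the start of another gene was nearer than the host's, and for 10 that gene was protein-coding.

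The strongest was at cdc-48.1, which encodes an AAA ATPase that unfolds ubiquitinated proteins and hosts C06A1.9 and C06A1.8. Its summit lay 166 bp upstream of the host start, with signals of 463.5 in replicate 1, 425 in replicate 2 and 889.9 in the IDR list. C06A1.9 begins 343 bp into the host, so this summit also fell in its window, 509 bp upstream, while C06A1.8 begins 2473 bp in and had no summit of its own. A single peak was thus counted for a pair with overlapping windows and for a separate one.

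Genes of the ribosome and of translation were prominent among marked hosts. Of 13 hosts named as cytosolic ribosomal protein genes (rpl, rps), 10 (76.9%, 49.7 to 91.8) had an IDR summit, and of 68 ribosomal protein genes so named that host no snoRNA of this kind, 40 had one (58.8%, 47 to 69.7). The intervals overlap, so a difference between ribosomal hosts and other ribosomal genes was not shown. Translation factor hosts had a summit in 2 of 3 cases and all other hosts in 33 of 143 (23.1%, 16.9 to 30.6). The other hosts include Y37E3.8, whose RefSeq product is a protein of the large ribosomal subunit and which had no IDR summit. Counted by product rather than by name, 10 of 14 ribosomal hosts (71.4%, 45.4 to 88.3) had one.

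The rpl-15 summit, 353 bp upstream of the host start, had signals of 444.3 in replicate 1 and 363.4 in replicate 2, and rpl-15 hosts K11H12.12 and K11H12.13. The rps-12 summit, 169 bp upstream, had 297.3 and 289.6, and its snoRNA genes F54E7.10 and F54E7.11 begin 80 and 447 bp into the host. The rpl-7A summit, 92 bp upstream, had 201.3 and 197.6, and rpl-7A hosts Y24D9A.9 and Y24D9A.10. In these small genes the summit was nearer to the host start than to either snoRNA, although the start of ska-3, a neighbour of rps-12, was nearer still.

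The rps-23 summit, with F28D1.13 inside the gene, lay 279 bp upstream of the host and had 152.3 in replicate 1 and 156.8 in replicate 2, with the start of dpm-3 slightly nearer. rpl-6, which hosts R151.11, R151.12 and R151.13, had 130.7 and 116.2, with the summit 356 bp upstream. Its first snoRNA begins 166 bp into the host and its last 953 bp into it, so that the same site fell in the windows of R151.11 and R151.12 but not of R151.13. In 6 of the 10 marked ribosomal hosts the summit was nearer to the start of another gene than to the host's, and which gene a site belongs to was not tested.

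iff-2, which encodes the translation factor eIF5A and hosts F54C9.12, had a summit 71 bp upstream with signals of 363.6 in replicate 1 and 334.6 in replicate 2. eef-1G, an elongation factor gene with F17C11.14 and F17C11.15, had one 37 bp upstream with 224.7 and 179.2. F17C11.15 begins 979 bp into eef-1G, and the summit lay 1016 bp upstream of that snoRNA, just outside its window.

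Hosts outside translation were of many kinds. alg-5, an Argonaute gene that hosts T23D8.11, had a peak with signals of 322.3 in replicate 1 and 324.6 in replicate 2, but its summit, 815 bp upstream of alg-5, lay 145 bp upstream of the histone gene his-68. larp-1, which encodes an RNA-binding protein of the La family and hosts R144.18, had 267.8 and 288.4, and its summit was nearer to wip-1. hsp-1, a cytosolic chaperone gene with F26D10.24, had 253.2 and 259.1, with the summit 395 bp upstream. The start of the non-coding F26D10.23 was nearer to that summit, at 151 bp. In these 3 hosts the snoRNA window held no summit in the IDR list. In the pooled list and replicate 2 the window of R144.18 held one too, and in replicate 2 that of F26D10.24.

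ttc-7, with Y39A3CR.11, had signals of 228.6 in replicate 1 and 217.9 in replicate 2, at a summit 156 bp upstream of the neighbouring ddp-1. akap-1, with C56G2.20, had 228.6 and 217.3, 435 bp upstream of a host start that lies downstream of the snoRNA. Y41D4B.4, with Y41D4B.36, had 207.2 and 157.5, at a summit nearer to the ribosomal gene rps-28. ttc-7 and Y41D4B.4 were thus marked by a site nearer to a neighbour's start than to their own.

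wwp-1, a ubiquitin ligase gene with Y65B4BR.12, had signals of 177.7 in replicate 1 and 137.4 in replicate 2. Its summit was nearer to the start of the non-coding Y65B4BR.10 (58 bp) than to wwp-1 (249 bp). mnk-1, which encodes a kinase of translation factors and hosts R166.7, had 4 summits before its starts, the strongest with 175.5 and 147.8 at a summit nearer to another snoRNA gene, R166.10 (239 bp), than to mnk-1 (566 bp). fbxl-2, an F-box gene with B0393.10, had 142.2 and 157.1 at a summit 93 bp upstream. zip-2, a transcription factor gene of the pathogen response with K02F3.15, had 120.9 and 154. top-2, DNA topoisomerase, with K12D12.6, K12D12.7 and K12D12.8, had 114.5 and 163 at a summit 97 bp upstream of its neighbour npp-3. The 3 snoRNA genes of top-2 begin 1312, 1408 and 1483 bp into the host, beyond the reach of that summit.

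C04A2.16 in egl-27, a gene for a chromatin factor, was the exception among strong peaks. Its window held a summit 440 bp upstream of the snoRNA with signals of 192.7 in replicate 1, 222.2 in replicate 2 and 412.4 in the IDR list, and a second one 237 bp upstream with an IDR signal of 103.5. The stronger summit was 396 bp inside from the nearest egl-27 start and in no host window, and a different summit, with an IDR signal of 197.1, lay 962 bp upstream of an egl-27 start. These 2 summits of the snoRNA window lay neither within 100 bp of the snoRNA start nor in a host window.

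Where windows overlapped, a summit could lie in both. Of 24 combinations of a pair and a summit lying in both windows, made of 18 distinct summits, 21 were nearer to a host start and 3 nearer to the snoRNA start. All 24 lay upstream of the nearest host start, and a snoRNA lies downstream of its host's first start, so this distance is largely set by the arrangement of the genes and does not assign a site. The 3 were smy-2 and both summits of Y37E3.20, where a later host start lies downstream of the snoRNA.

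The members with a summit within 100 bp of their start also differed from the others in size. In place they differed mainly from members whose site was at a host start. Their median distance from the first host start was 3338 bp, against 1116 bp for those and 3238 bp for members with neither. The 13 with a summit within 100 bp had a median length of 76 bp, against 131 bp for 59 members whose site was at a host start and 128 bp for 111 members with neither. Those in an intron lay in introns with a median of 463 bp, against 229 and 716 bp in the other sets, and began at a median of 231 bp from the intron's start, against 37 and 198 bp. D box letters (CTGA in the last 15 bases) were present in 10 of 13 (76.9%), 9 of 59 (15.3%) and 20 of 111 (18%), and ACA before the last 3 bases in 0 of 13, 25 of 59 (42.4%) and 20 of 111 (18%). C box letters with up to 1 mismatch were present in 6 of 13 (46.2%), 7 of 59 (11.9%) and 16 of 111 (14.4%), and 4 of the 13 (30.8%) held both C and D box letters. Without a mismatch, C box letters were present in 1 of 13 (7.69%), 2 of 59 (3.39%) and 6 of 111 (5.41%). The members with a summit within 100 bp were thus mostly short genes with D box letters and no ACA at the end. Members of 1 host are not independent, and 3 members at host starts lie in top-2 alone.

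**Figure D4:**
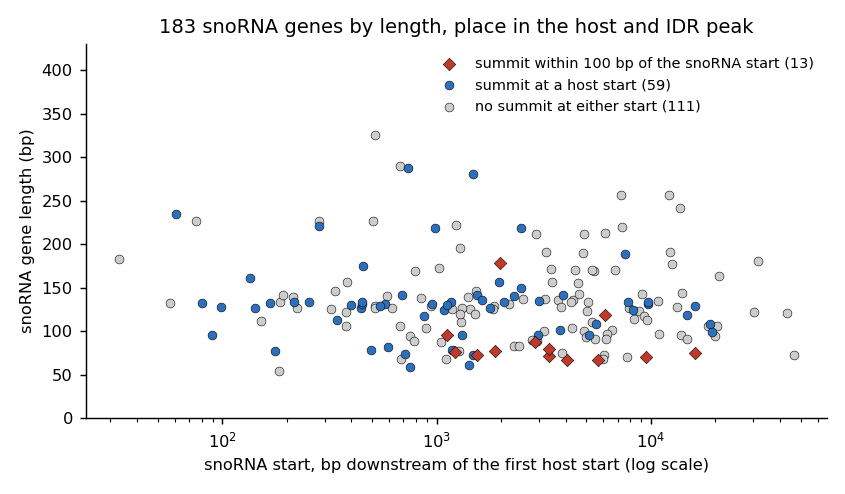
Length of each of 183 snoRNA genes (vertical axis, bp) by its distance from the first start of its host (horizontal axis, bp, log scale), diamonds for 13 with an IDR summit within 100 bp of their start, blue circles for 59 with a site at a host start and grey circles for 111 with neither. The diamonds lie low, at a median length of 76 bp. Their median distance from the first host start is 3338 bp, against 1116 bp for the blue and 3238 bp for the grey circles.

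Weaker sites extended the picture. There were 20 members with a summit at their own start in the pooled list and in both replicates but not in the IDR list, and 9 of these pooled summits lay within 100 bp of the start. The strongest was at F48A9.6 in let-607, with signals of 56.4 in replicate 1 and 38.93 in replicate 2 and its summit 36 bp inside from the start. T24H7.6 in T24H7.2 had 40.81 and 46.91 with the summit 38 bp upstream, and D1046.6 in cfim-2 had 30.77 and 48.48 with the summit 81 bp upstream. B0041.9 in rpl-4 had 42.86 and 44.32, and Y49E10.36 in the histone gene his-72 had 32.95 and 47.89, but their summits lay 464 and 687 bp upstream. The summit of D1046.6 was nearer to the transfer RNA pseudogene before it, 16 bp upstream of that gene's start. Among these 5, the summits of F48A9.6 and T24H7.6 lay within 100 bp of the snoRNA start with no other start nearer.

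The proteins that work with these RNAs are encoded by genes that were often marked too. Of 10 genes found for core snoRNP and assembly proteins, 7 had an IDR summit, against the coding background of 8.09% given above. For those that host no member, whether the start of another gene lay nearer to the summit was not checked. fib-1, the fibrillarin gene, had signals of 130 in replicate 1 and 144.8 in replicate 2, and nol-58 had 108.4 and 143.5. ruvb-2, an assembly ATPase gene, had 91.31 and 87.93. nol-56, a C/D core protein gene that itself hosts K07C5.10, K07C5.11, K07C5.12 and K07C5.18, had 84.24 and 65.47 with the summit 182 bp upstream.

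Genes of the H/ACA proteins followed. nola-3 had signals of 79.25 in replicate 1 and 65.36 in replicate 2, Y48A6B.3 had 47.97 and 65.85, and dkc-1, the dyskerin gene, had 55.34 and 43.75. The level of nola-3 was about that of nol-56. ruvb-1 and snu-13 had a summit in the pooled list and both replicates only, with pooled signals of 96.09 and 85.92, and garr-1 had none in any list.

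The upstream limit of the window decided how many members were counted, with 20 snoRNA starts marked at 500 bp, 35 at 1000 bp and 51 at 2000 bp. Just inside the limit of 1000 bp upstream or 200 bp downstream were the summits 962 bp upstream of B0412.7, 928 bp upstream of R151.12 and 165 bp inside from the start of Y37E3.20. Just outside were those 1016 bp upstream of F17C11.15, 1020 bp upstream of Y43B11AR.7, 1100 bp upstream of C41C4.17, 1148 bp upstream of C41C4.16 and 1179 bp upstream of T19C4.11. The members lay on all chromosomes, with 36 on I, 35 on II, 38 on III, 28 on IV, 36 on V and 10 on X, and 145 of them overlapped no exon of their host.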

How the data were processed

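The members, gene lists and letter patterns were chosen with earlier results of these data known. ChIP-seq peaks were called by the authors for each of 2 replicates and on their pooled reads, after sonication of the chromatin and against a control alignment, on ce11, per the deposited file descriptions, and the IDR list was made from these lists. No label or file header names the aligner, peak caller or thresholds. The deposited signal is in units of the peak caller, with normalization to depth not stated, and was used to describe and rank peaks within a list. The deposited −log10 q-value was not used to rank. The deposited summit offset, another number per peak, gave the summit. The lists on ce10 were not used here.

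Lines with the same interval were reduced to the stronger, which left 2404 IDR, 8389 pooled, 8092 replicate 1 and 13289 replicate 2 peaks. Genes and all transcript starts came from Ensembl release 115, and sequence and transfer RNA annotation from RefSeq for the same assembly, WBcel235. A pair was called separate where the snoRNA window and every host window shared no base. No test was made: there was 1 group, and shares carry Wilson intervals at 95% confidence (scipy 1.17.1, Python 3.11.15). The code that sorts pairs was checked on simulated summits placed inside or just outside the same windows, and 89 of 89 planted pairs were recovered. Because the same windows placed and read these summits, this cannot show which gene a real summit belongs to. The members named were those with an IDR summit in their own or their host's window, up to 30 in order of signal, up to 5 with a weaker summit of their own, hosts of 3 or more members, and snoRNP protein genes. Others are said to be named after their values were seen. Alternatives covered the windows, the peak lists, each replicate alone, the host starts, the strand and the letter window.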

Additional observations from a re-analysis of the deposited data

How the results depend on the processing

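Of 68 alternatives, 44 left a count within 1.5 times and 24 moved it. In the pooled list the counts were 67 snoRNA starts, 80 hosts, 15 separate pairs with the snoRNA start alone, 38 with the host start alone, 10 with both, 67 distinct peaks and 30 members with a summit within 100 bp. In the replicate peaks that overlap each other they were 55 snoRNA starts, 75 hosts, 39 host start alone, 6 both, 52 distinct peaks and 22 within 100 bp. A window from 500 bp upstream gave 20 snoRNA starts, and the IDR peaks above the median signal gave 15 pairs with the host start alone. The pairs with both starts numbered 1 with windows from 500 or 2000 bp, with whole peaks, with the most upstream host start and with hosts on either strand, against 0. With the most upstream host start, 0 summits in both windows were nearer the snoRNA, which the order of the genes sets wherever the summit lies before that start. Within 100 bp of the summit, AGGTCA was in 1 and GAGAGA in 3 of the 12 peaks.

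Leaving out each replicate gave 33 to 36 snoRNA starts, 45 to 45 hosts, 9 to 9 pairs with the snoRNA start alone, 24 to 26 with the host start alone, 0 to 1 with both, 28 to 30 distinct peaks and 12 to 14 members within 100 bp, the last chosen after seeing the data. These counts used the strongest peaks of the other replicate. No paired analysis was possible because there was 1 group. Depth is unknown, so a start without a peak cannot be called unbound.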

Other observations

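Among the 163 snoRNA genes outside same-strand hosts, 33 lay inside a protein-coding gene on its other strand. A summit in the IDR list lay at the start of 8 of these 33 (24.2%, 95% Wilson interval 12.8 to 41), and at 35 of the 130 others (26.9%, 20 to 35.1). In the pooled list the counts were 16 of 33 (48.5%, 32.5 to 64.8) and 63 of 130 (48.5%, 40 to 57).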
